A study of Mus musculus with 18 samples.

Results

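Brunner's glands secrete mucus and an alkaline fluid that coat the first part of the duodenum. The transcripts described here encode 10 proteins that move bicarbonate, chloride or water: the chloride channels Cftr and Ano1, the cotransporters Slc12a2 and Slc4a4, the anion exchangers Slc26a3, Slc26a6 and Slc26a9, the carbonic anhydrase Car2 and the water channels Aqp1 and Aqp5. They were chosen as a named list of rows with Ensembl-based identifiers, whose symbols come with the list. Of the 10, 9 had a row among the 17204 genes of the table. Slc26a9 is not analysed here.

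The tissue was laser-captured from male CD-1 mice, 1 mouse per array and 18 arrays in all. Wild-type mice and GLP1-R -/- mice (GLP-1R-/- in the design text, knockout below), which lack the receptor for glucagon-like peptide 1, each gave 3 groups of 3: untreated mice, mice given exendin-4 and taken at 6 h, and mice given it and taken at 18 h. This peptide activates the receptor. The sources used here do not give the age of the mice, the dose and route of the peptide or the cells in which the receptor allele is deleted. The labels name no vehicle-injected or time-matched mice, so within a genotype the agonist, the injection and the hour of collection cannot be told apart. No table used here pairs the other identifiers with symbols, so 159 genes listed by symbol, among them markers of the gland and of neighbouring cell types, were not analysed here, nor was the receptor transcript.

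In fluid-secreting epithelia, Slc12a2 (NKCC1) and Slc4a4 (NBCe1) load chloride and bicarbonate through the base of the cell. Cftr, opened through cyclic AMP, and Ano1, opened by calcium, let anions out at the top, where Slc26a3 and Slc26a6 exchange chloride for bicarbonate. Car2 makes bicarbonate and protons from carbon dioxide inside the cell, and water follows the salt, partly through aquaporins. The GLP-1 receptor couples to the stimulatory G protein and so raises cyclic AMP.

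Signals were summarised by RMA on the log2 scale, where a difference of 1 is a doubling. This method corrects, normalises and summarises the array probes and gives no detection call. Levels of different genes are not compared, because probes differ in brightness. Differences are tested with limma in 1 fit to all 18 arrays, and adjusted p-values are Benjamini-Hochberg values over the 12775 genes that exceeded 4.79 on at least 3 arrays. A gene is called at an adjusted p under 0.05. Among the members 8 were tested: all but Slc26a3, which was too dim, and Slc26a9. One array stood apart from the others across the tested genes: knockout 6 h replicate 13 had correlations between 0.911 and 0.945 with the other 17 arrays, and limma's array weights gave it 0.084. In RNA from a captured region, fewer cells of a type and less RNA per cell cannot be told apart.

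The water channel Aqp1 and the carbonic anhydrase Car2 were the members with calls, all resting on wild-type glands 6 h after exendin-4. Limma called 1 of the 8 tested members in wild-type glands at 6 h against untreated, where 3.39% of tested genes were called. It called 1 of the 8 between 18 h and 6 h, against 10.9% of tested genes. Between the genotypes at 6 h it called 1 of the 8, against 6.07%. Aqp1 was 3.02-fold lower at 18 h than at 6 h in wild-type glands, and 2.34-fold lower in knockout than in wild-type glands at 6 h. Its 6 h mean was 2.17-fold that of untreated wild-type glands, a difference that was not called (limma adjusted p = 0.0733). The direct test of whether the 6 h change of Aqp1 differed between genotypes was not called either (limma adjusted p = 0.457). In wild-type glands Car2 fell 1.71-fold at 6 h (limma adjusted p = 0.0458) and its 18 h level overlapped the untreated one. That call was lost without any 1 of the 6 arrays compared, and 7 of 25 alternatives made it. The chloride channels, the exchanger Slc26a6, the bicarbonate loader Slc4a4 and the second water channel Aqp5 were not called in any of the 13 contrasts. Slc12a2 varied 4.04-fold between arrays, much of it between mice of the same group.

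**Figure D1:**
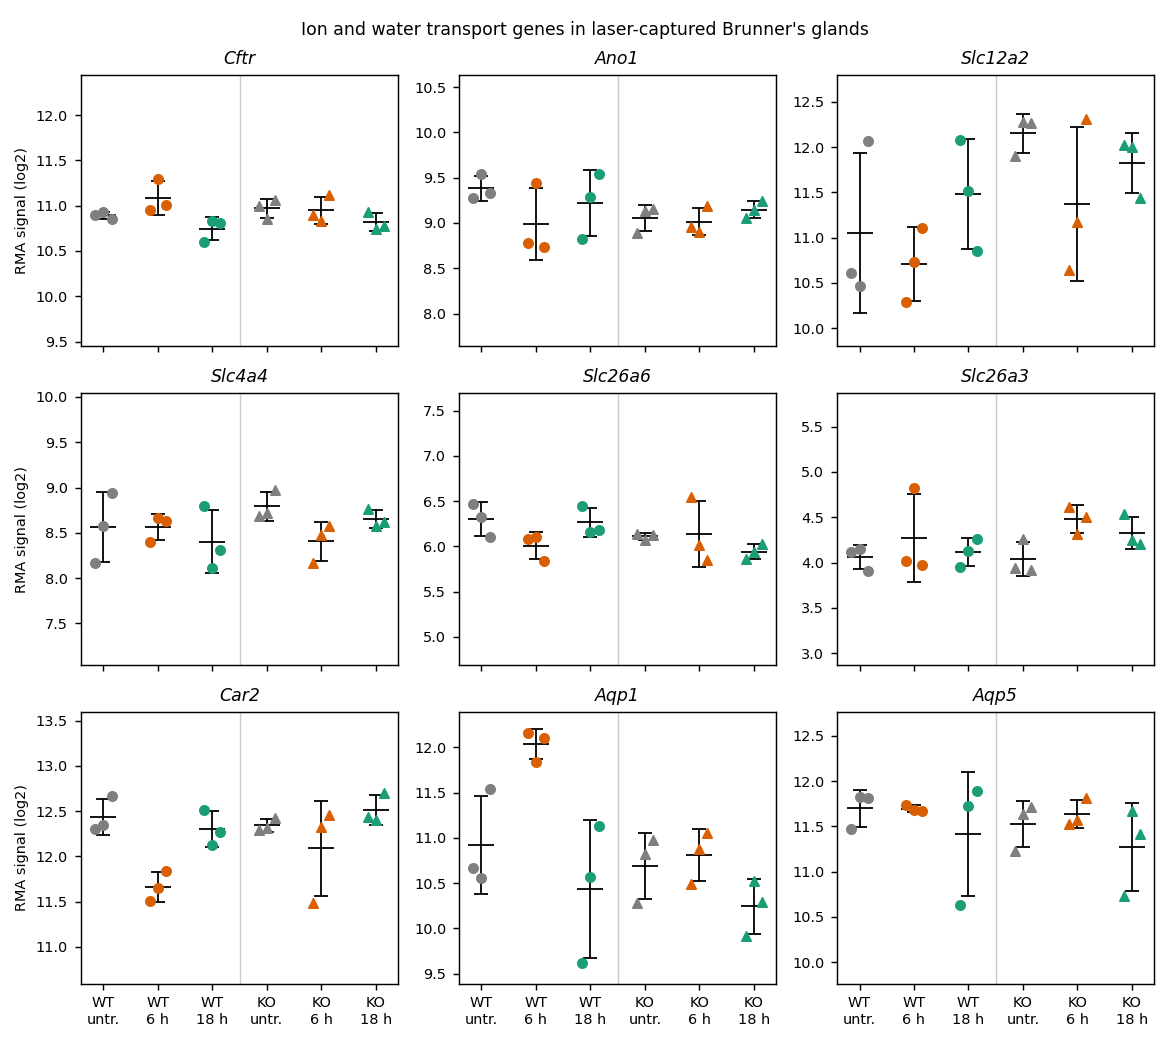
Signal of 9 ion and water transport genes on each array. The vertical axis is the RMA signal on the log2 scale, with the same span of 3 in every panel, and the columns are the 6 groups (WT, wild-type; KO, GLP-1R-/-; untr., untreated). Circles are wild-type and triangles knockout mice; the bar and whiskers are the mean and SD of 3 mice. The 3 wild-type 6 h mice are the highest of all 18 for Aqp1, and knockout replicate 13 is the lowest point of its group for Car2.

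Aqp1 (ENSMUSG00000004655_at, GRCm38.p6 chr6:55336299-55348555) forms constitutively open water pores and is abundant in many capillaries as well as in secretory epithelia. Its signal in untreated wild-type glands was 10.66, 10.55 and 11.54 in replicates 1, 2 and 19. At 6 h it was 12.16, 11.84 and 12.10 in replicates 7, 8 and 9. At 18 h it was 9.62, 10.57 and 11.13 in replicates 10, 11 and 12. All 3 mice at 6 h lay above every other array of the series, while the untreated and 18 h groups overlapped.

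The 6 h mean of Aqp1 in wild-type glands was 12.03 ± 0.168 against 10.9 ± 0.539 untreated (SD, n = 3 each). The difference of 1.12 (SE 0.322, 95% interval 0.44 to 1.79) was the 104th largest of the 12775 tested genes but missed the threshold, with a limma adjusted p of 0.0733. It passed without untreated replicate 19, the highest of that group, where the difference was 1.42 (limma adjusted p = 0.0271). With the difference at 1.12 it also passed without wild-type 18 h replicate 10 (0.0274), wild-type 18 h replicate 12 (0.0439) or knockout 6 h replicate 13 (0.0454), arrays that enter only through the shared spread. It was not called without any 1 of replicates 1, 2, 7, 8 or 9 of the groups compared (limma adjusted p from 0.0985 to 0.266). Nor was it called without 9 of the 12 arrays of other groups, left out 1 at a time. Of the 25 alternatives 6 called the difference, among them the fit without replicates 10 and 16, which was chosen after seeing the data. The direction was the same in all 25, whose differences ran from 0.93 to 1.42.

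Between 18 h and 6 h Aqp1 fell by 1.60 on the log2 scale in wild-type glands (SE 0.322, 95% interval -2.28 to -0.92, limma adjusted p = 0.00394). This was the 65th largest difference of the 12775 genes, and the call held in all 25 alternatives, with adjusted p-values between 0.000199 and 0.0242. Against the untreated mean Aqp1 differed by -0.48 after 18 h (SE 0.322, limma adjusted p = 0.766). The 3 wild-type contrasts share arrays with each other, so their values are not independent.

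In knockout glands Aqp1 spanned a narrower band, from 9.92 to 11.05. It measured 10.28, 10.82 and 10.97 in the untreated mice, 10.49, 10.88 and 11.05 at 6 h, and 9.92, 10.52 and 10.29 at 18 h. The 3 groups overlapped. The difference from untreated knockouts was 0.11 at 6 h (95% interval -0.57 to 0.79, limma adjusted p = 0.9). After 18 h it was -0.45 (limma adjusted p = 0.991).

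At 6 h Aqp1 was 2.34-fold lower in knockout than in wild-type glands, a difference of -1.23 (SE 0.322, limma adjusted p = 0.032), with no overlap between the groups. That call was lost without wild-type 6 h replicate 7 (adjusted p = 0.113), replicate 8 (0.0552) or replicate 9 (0.0928), or without knockout 6 h replicate 13 (0.0925), with differences of -1.16, -1.32, -1.19 and -1.07 in that order. Untreated glands of the genotypes differed by -0.23 (95% interval -0.91 to 0.45, limma adjusted p = 0.999). The direct test of whether the 6 h change differed between genotypes gave 1.001 (SE 0.455, 95% interval 0.04 to 1.96, limma adjusted p = 0.457), and the genotype by time test gave -1.03 (SE 0.455, limma adjusted p = 0.299). Neither was called, so the response of Aqp1 is not shown to differ between the genotypes.

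Because the agonist acts through cyclic AMP, the 250 bases before RefSeq starts of members were searched for the cyclic AMP response element TGACGTCA. The core TGACG that it contains was searched for as well, and both on both strands. RefSeq windows (GRCm38.p6) were read for 7 of the 9 analysed members, 8 windows in all since 2 were read for Slc4a4. Those of Slc4a4, Ano1 and Slc26a3 lie inside the gene extents given here, so the bases before the outer ends of these genes were not searched. The windows of Car2 and Slc12a2 were not searched. The element was found in 0 of the 8 and the core in 0 of the 8, against 1.55% and 17.8% of all 32851 such windows. That says only that these letters are not in those windows. The GC box GGGCGG was in 6 of the 8 (32.7% of all windows), and the TATA box TATAAA in 1 of the 8, that of Slc26a3 (12.4% of all windows). The upstream window of Aqp1, the member with the largest range between groups, is shown with its GC box in capitals, its first base at -190 from the start (chr6:55336049-55336298, plus strand).
Aqp1: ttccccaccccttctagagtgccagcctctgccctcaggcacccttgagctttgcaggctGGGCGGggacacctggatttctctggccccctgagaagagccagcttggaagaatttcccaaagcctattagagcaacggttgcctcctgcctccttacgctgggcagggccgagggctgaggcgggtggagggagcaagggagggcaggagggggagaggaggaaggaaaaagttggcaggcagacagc

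Among the 12775 tested genes the profile most like that of Aqp1 over the 18 arrays belonged to ENSMUSG00000047810, with a root mean square difference of 0.297 between values centred on each gene's own mean. A gene with no variation at all would have 0.68. Its group means were 7.39 untreated, 8.04 at 6 h and 7.02 at 18 h in wild-type glands, and 7.15, 7.07 and 7.10 in knockouts. ENSMUSG00000028776 followed at 0.326, with 8.54, 9.74 and 8.41 in wild-type glands and 8.50, 8.40 and 8.43 in knockouts. Both shared with Aqp1 a highest mean in wild-type glands at 6 h, which is part of the likeness that chose them.

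Aqp5 (ENSMUSG00000044217_at, chr15:99591028-99594829), the aquaporin of the secreting surface in salivary, lacrimal and airway glands, was not called in any contrast. Its signal in wild-type glands was 11.47, 11.82 and 11.82 untreated (replicates 1, 2 and 19) and 11.74, 11.68 and 11.67 at 6 h (replicates 7, 8 and 9). At 18 h replicate 10 was at 10.63, replicate 11 at 11.73 and replicate 12 at 11.90. The 6 h difference was -0.0028 (95% interval -0.58 to 0.57, limma adjusted p = 0.999), so a change of up to about 1.49-fold in either direction lies within the interval. Knockouts had Aqp5 means of 11.5 ± 0.258 in untreated mice, 11.6 ± 0.155 in the 6 h mice and 11.3 ± 0.487 in the 18 h mice (SD, n = 3 each), with replicate 16 of the last group at 10.73.

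Car2 (ENSMUSG00000027562_at, chr3:14886269-14900770), the abundant cytosolic carbonic anhydrase, had signals of 12.30, 12.35 and 12.67 in untreated wild-type glands (replicates 1, 2 and 19). At 6 h they were 11.51, 11.66 and 11.84 (replicates 7, 8 and 9), and at 18 h 12.51, 12.12 and 12.27 (replicates 10, 11 and 12). All 3 mice at 6 h lay below all 3 untreated and all 3 18 h mice. The mean fell from 12.4 ± 0.2 to 11.7 ± 0.165 (SD, n = 3 each), by 0.77 on the log2 scale (SE 0.201, 95% interval -1.20 to -0.34, limma adjusted p = 0.0458).

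This call lay close to the threshold. It was lost without any 1 of the 6 arrays compared, with adjusted p-values of 0.0899 (replicate 1), 0.0914 (replicate 2), 0.147 (replicate 19), 0.181 (replicate 7), 0.099 (replicate 8) and 0.0817 (replicate 9) and differences between -0.86 and -0.66. It was also lost, at adjusted p-values between 0.0538 and 0.0623, without replicates 4, 5, 6, 11, 12, 16, 17 or 18 of the other groups. The fall of Car2 had the same sign in all 25 alternatives, and 7 of them called it.

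Car2 was 1.55-fold higher at 18 h than at 6 h in wild-type glands, a difference of 0.63 (SE 0.201, 95% interval 0.21 to 1.06) with a limma adjusted p of 0.0529. The call was made without knockout 6 h replicate 13 (0.00361) or replicate 15 (0.0359), arrays outside the groups compared. It was not made without any 1 of the 6 arrays compared (limma adjusted p from 0.0657 to 0.196) or without 10 of the 12 others. Of the 25 alternatives 5 called this difference. Against untreated glands the 18 h difference was -0.14 (95% interval -0.56 to 0.29, limma adjusted p = 0.904).

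In knockout glands Car2 measured 12.29, 12.31 and 12.43 untreated and 12.43, 12.41 and 12.70 at 18 h. The knockout 6 h mice were split: replicate 13, the array that stood apart, was at 11.49, and replicates 14 and 15 were at 12.32 and 12.46. The 6 h difference was -0.25 with all 3 (SE 0.201, limma adjusted p = 0.64) and 0.05 without replicate 13 (SE 0.148, limma adjusted p = 0.992).

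The comparison of the genotypes for Car2 depended on the same array. At 6 h knockout glands were 0.42 above wild-type ones with it (limma adjusted p = 0.223) and 0.72 above without it (adjusted p = 0.00766). The 6 h change of Car2 was more negative in wild-type glands by -0.52 with replicate 13 (SE 0.285, limma adjusted p = 0.538) and by -0.82 without it (SE 0.199, adjusted p = 0.0729). Neither was called, so the response of Car2 is not shown to differ between the genotypes. With array weights the difference in response was -0.82 and was called (limma adjusted p = 0.0326). That was the only 1 of the 25 alternatives that called it.

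**Figure D2:**
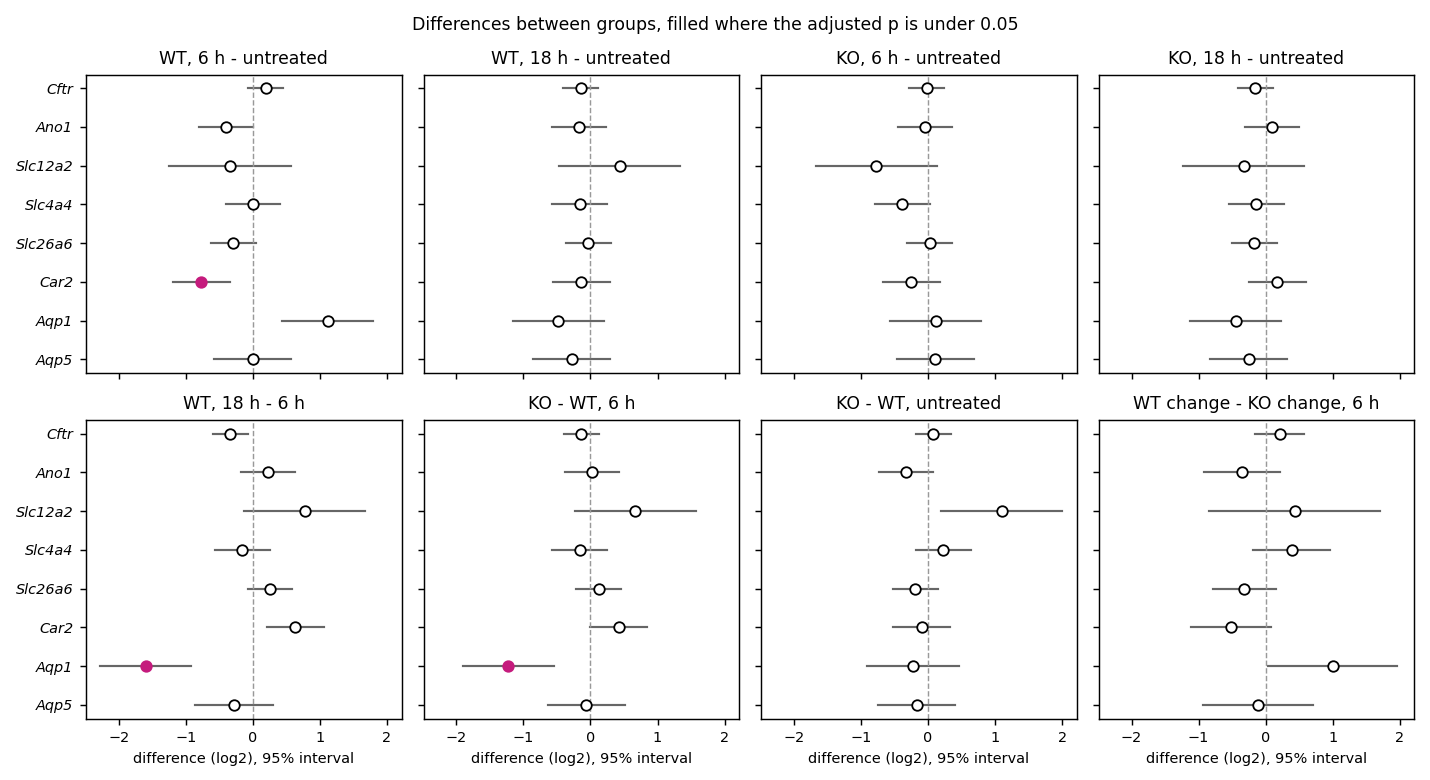
Differences between groups for the 8 tested genes. The horizontal axis is the difference on the log2 scale, first group minus second, with 95% intervals from limma as lines; filled points have an adjusted p under 0.05 over all tested genes. Car2 at 6 h against untreated in wild-type glands, and Aqp1 in wild-type glands at 18 h against 6 h and in knockout against wild-type glands at 6 h, are the filled ones.

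Slc12a2 (ENSMUSG00000024597_at), which carries sodium, potassium and chloride into the cell together, had the widest spread between mice of a group among the members. Its SD within groups was 0.605, larger than that of 98.8% of tested genes, where the median was 0.211. Untreated wild-type mice measured 10.61, 10.47 and 12.07 (replicates 1, 2 and 19), so replicate 19 stood 1.46 or more above the others. Wild-type mice measured 10.30, 10.73 and 11.10 at 6 h and 12.07, 11.52 and 10.86 at 18 h.

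Knockouts had the higher Slc12a2 signals in each condition by mean. They measured 11.90, 12.28 and 12.27 untreated, 10.65, 11.18 and 12.31 at 6 h, and between 11.44 and 12.03 at 18 h. Averaged over the 3 conditions, knockout glands were 1.63-fold above wild-type glands, a difference of 0.70 (SE 0.247, 95% interval 0.18 to 1.22) that was not called (limma adjusted p = 0.105). Within conditions it was 1.10 untreated (SE 0.428, limma adjusted p = 0.464), 0.67 at 6 h (adjusted p = 0.357) and 0.34 at 18 h (adjusted p = 0.874). The groups overlapped in all 3 conditions.

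The averaged genotype difference of Slc12a2 was called without knockout 6 h replicate 13 (difference 0.82, limma adjusted p = 0.0372) or wild-type untreated replicate 19 (0.87, adjusted p = 0.0226). In that averaged contrast Aqp1 differed by -0.55 in knockouts (SE 0.186, limma adjusted p = 0.0912), called without wild-type 18 h replicate 10 (-0.68, adjusted p = 0.0146). Car2 differed by 0.18 (SE 0.116, limma adjusted p = 0.438) and was called without replicate 13 (0.28, adjusted p = 0.0346). Of the 24 alternatives for each gene, 3 called Slc12a2, 3 called Aqp1 and 2 called Car2. No exendin-4 contrast of Slc12a2 was called; its intervals were the widest of the members, from -1.25 to 0.56 at 6 h and from -0.47 to 1.34 at 18 h in wild-type glands.

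Cftr (ENSMUSG00000041301_at, chr6:18170687-18322770), the anion channel mutated in cystic fibrosis, was the least variable member, with an SD within groups of 0.126, and 9.6% of tested genes had a smaller one. Wild-type mice measured 10.90, 10.93 and 10.85 untreated, 10.95, 11.29 and 11.01 at 6 h, and 10.60, 10.84 and 10.81 at 18 h. The 6 h mice lay just above and the 18 h mice just below all untreated mice, by 0.19 (95% interval -0.07 to 0.45, limma adjusted p = 0.55) and -0.15 (95% interval -0.41 to 0.11, adjusted p = 0.825). From 6 h to 18 h Cftr differed by -0.34 (SE 0.123, limma adjusted p = 0.0937). In knockouts Cftr ran from 10.75 to 11.12 over the 9 mice, and averaged over conditions the genotypes differed by 0.004 (95% interval -0.15 to 0.15, limma adjusted p = 0.982).

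Ano1 (ENSMUSG00000031075_at, chr7:144588549-144752026), the calcium-gated chloride channel, had signals of 9.27, 9.54 and 9.33 in untreated wild-type glands. At 6 h replicates 7 and 9 were at 8.78 and 8.74 and replicate 8 at 9.44. The 6 h difference was -0.39 (SE 0.19, 95% interval -0.80 to 0.01, limma adjusted p = 0.36), and it was called with array weights alone (-0.54, adjusted p = 0.0417). Untreated knockouts, at 8.89, 9.13 and 9.15, all lay below untreated wild-type mice, by -0.32 (SE 0.19, limma adjusted p = 0.829). Treated knockouts ran from 8.90 to 9.24.

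Slc4a4 (ENSMUSG00000060961_at, chr5:88793858-89239656), the electrogenic sodium bicarbonate cotransporter, had wild-type means of 8.56 ± 0.386 untreated, 8.56 ± 0.147 after 6 h and 8.40 ± 0.351 after 18 h (SD, n = 3 each). Its 6 h difference was 0.00075 (95% interval -0.41 to 0.41, limma adjusted p = 0.999). In knockouts the 6 h mice, at 8.16, 8.47 and 8.58, all lay below the untreated ones, at 8.69, 8.72 and 8.97, by -0.39 (SE 0.193, limma adjusted p = 0.595). The 18 h knockouts lay between 8.57 and 8.77.

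Slc26a6 (ENSMUSG00000023259_at, chr9:108854043-108913049) exchanges chloride for bicarbonate in pancreatic duct and duodenum. Its wild-type means were 6.30 ± 0.187 untreated, 6.01 ± 0.148 after 6 h and 6.26 ± 0.159 after 18 h (SD, n = 3 each). Its 6 h difference was -0.29 (95% interval -0.63 to 0.04, limma adjusted p = 0.438). At 18 h all 3 knockouts, between 5.86 and 6.02, lay below all 3 wild-type mice, between 6.16 and 6.45, by -0.32 (SE 0.159, limma adjusted p = 0.439). Knockout 6 h replicate 13 had the highest Slc26a6 signal of the series, 6.54.

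Slc26a3 (ENSMUSG00000001225_at, chr12:31433142-31473922), the exchanger of the intestinal surface epithelium, exceeded the filter level of 4.79 on 1 of 18 arrays, wild-type 6 h replicate 8 at 4.83. The other arrays ran down to 3.91. It was therefore not tested, and a signal this low cannot be told from background. In a fit to all 17204 genes its largest difference was 0.44 between knockouts at 6 h and untreated knockouts (SE 0.189, limma adjusted p = 0.57).

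Counts among the 8 tested members are given here beside the share of all tested genes. At 6 h in wild-type glands 1 of the 8 members was called (Car2, lower), where 3.39% of tested genes were called and 1.46% were called lower, and 2 members (Car2 and Aqp1) had an unadjusted p under 0.05, against 14.4% of tested genes. Groups did not overlap for 3 of the 8 (Cftr, Car2 and Aqp1), against 23.8% of tested genes. The median difference of the 8 members was -0.15, against 0.02 for all tested genes. Between 18 h and 6 h in wild-type glands 1 of the 8 was called (Aqp1, lower), where 10.9% were called and 6.05% were called lower. An unadjusted p under 0.05 was reached by 3 of the 8 (Cftr, Car2 and Aqp1), against 23.7% of tested genes, and groups did not overlap for 4 of the 8, against 35.7%. For 18 h against untreated limma called 0 of the 8 in wild-type glands, where 0.196% of tested genes were called, with 0 members at an unadjusted p under 0.05 (8.4% of tested genes) and 1 whose groups did not overlap (16.4% of tested genes).

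In knockout glands limma called 0 of the 8 at 6 h, at 18 h and between 18 h and 6 h, where 0% of all tested genes were called in each. An unadjusted p under 0.05 was reached by 0 members in each of the 3, against 8.13%, 5.14% and 8.93% of tested genes in that order. Groups did not overlap for 1 member at 6 h (Slc4a4, against 9.27% of tested genes), 1 at 18 h (Slc26a6, against 16.5%) and 0 between the times (13.3%). Between the genotypes limma called 0 of 8 untreated (0.618% of tested genes), 1 of 8 at 6 h (Aqp1, lower, against 6.07% called and 3.33% called lower) and 0 of 8 at 18 h (1.27%). An unadjusted p under 0.05 was reached by 1 member untreated (Slc12a2, against 7.53% of tested genes), 1 at 6 h (Aqp1, 22.7%) and 0 at 18 h (12.2%). Averaged over conditions limma called 0 of 8, where 7.03% of tested genes were called and 2 members, Slc12a2 and Aqp1, had an unadjusted p under 0.05, against 19.7% of tested genes. Groups of the 2 genotypes did not overlap for 1 member untreated (Ano1, 13.4% of tested genes), 1 at 6 h (Aqp1, 23.9%) and 1 at 18 h (Slc26a6, 23.8%).

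The genotype by treatment tests called 0 of 8 at 6 h with limma (0.376% of tested genes) and 0 of 8 at 18 h (0.0235%). The genotype by time test called 0 of 8 (1.54%). An unadjusted p under 0.05 was reached by Aqp1, 1 member, at 6 h (10.3% of tested genes), by 0 members at 18 h (4.7%) and by Aqp1, 1 member, in the test by time (14.8%).

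Some pairs of members varied together between mice of the same group, and most did not pass the test. Each array's deviation from its group mean was compared for the 28 pairs of the 8 tested members over 18 arrays, with exact two-sided permutation tests within groups adjusted over the 28 pairs. Pearson's r ran from -0.674 to 0.823 and was above 0 for 15 of the 28 pairs, and 3 pairs passed. The lowest value, for Slc26a6 and Car2 (exact permutation p = 0.118, adjusted p = 0.33), was -0.433 without replicate 13, the array with the largest deviation of both. Both members of a pair come from the same RNA and array, so anything that moves a whole array moves both.

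The highest value joined the water channels Aqp1 and Aqp5, with r = 0.823 (exact permutation p = 0.00116, adjusted p = 0.0207) and Spearman's rho = 0.787 (exact permutation p = 0.00324, adjusted p = 0.0302). Both were lowest in wild-type 18 h replicate 10, and both were lowest within their group in knockout 18 h replicate 16. Without the 2 arrays farthest from the median of Aqp1 the r was 0.667, and 0.877% of tested genes had an r with Aqp1 at least as high. When replicates 10 and 16 were left out together, a choice made after seeing the data, the 6 h difference of Aqp1 in wild-type glands was called (1.12, limma adjusted p = 0.0305) and that of Car2 was not (-0.77, adjusted p = 0.0613).

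Slc4a4 and Car2, both of the bicarbonate supply, had r = 0.707 (exact permutation p = 0.00148, adjusted p = 0.0207) and rho = 0.792 (exact permutation p = 0.00129, adjusted p = 0.0288). The r was 0.669 without the 2 arrays farthest from the median of Slc4a4 and 0.73 without replicate 13, and 1.06% of tested genes had an r with Slc4a4 at least as high. Ano1 and Aqp5 had r = 0.632 (exact permutation p = 0.00358, adjusted p = 0.0334) and rho = 0.701 (exact permutation p = 0.00206, adjusted p = 0.0288). Their r was 0.655 without the 2 arrays farthest from the median of Ano1, and 1.19% of tested genes had an r with Ano1 at least as high. Slc4a4 and Slc12a2, the base-side loaders, had r = 0.722 (exact permutation p = 0.0259, adjusted p = 0.133), and Cftr and Ano1, the outlets, r = 0.697 (exact permutation p = 0.0286, adjusted p = 0.133), which did not pass.

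**Figure D3:**
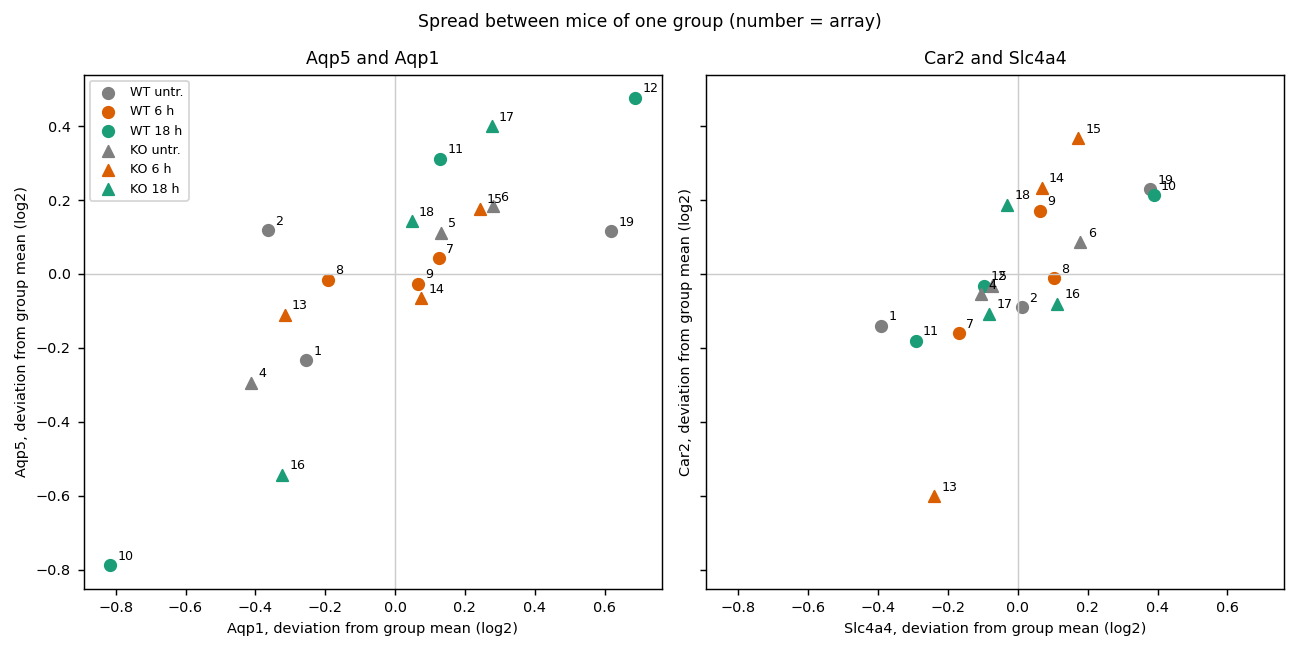
Spread between mice of one group for 2 pairs of genes. Each point is 1 array, numbered as in the labels; the axes are its deviation from the mean of its group on the log2 scale, Aqp1 against Aqp5 on the left and Slc4a4 against Car2 on the right, with circles for wild-type (WT) and triangles for knockout (KO) mice. Replicate 10 lies at the lower left for the water channels, and replicate 13 is the lowest point for Car2.

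RefSeq positions were read here for 9 members, which include Slc26a9 and leave out Slc12a2. These 9 lie on several chromosomes, 0 of them on chromosome 17, which holds Glp1r in the reference table (chr17:30901867-30936510, GRCm38.p6). None of these 9 is therefore a close neighbour of the receptor gene altered in the knockout. The position of Slc12a2 is not given here.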

How the data were processed

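Total RNA from laser-captured glands was isolated with TRIzol, cleaned on MinElute columns and labelled with biotin by Affymetrix in vitro transcription, per the labels' protocols. The authors deposited log2 signals from RMA, as the submitters' processing notes name it. The sources used here do not give its version, the array model, how probe sets were defined or the genome build. RMA compresses differences of dim genes. Array medians lay between 5.88 and 6.11, and precision is limited by the number of arrays.

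The values were used as deposited. Genes above 4.79, the 30th percentile of all values, on at least 3 arrays were tested with limma 3.58.1 in R 4.3.3: 1 mean per group, all 18 arrays, 13 contrasts, eBayes, two-sided p with Benjamini-Hochberg adjustment over 12775 genes. The fit was tested on simulated data. Arrays come from individual mice per the labels, which give no batch and number each array once, so nothing pairs them. Alternatives were no filter, a filter at the 50th percentile, a fit to only the groups compared, array weights, arrays centred on their medians, an intensity trend with a robust prior, and each array left out in turn. A fit without replicates 10 and 16 together, chosen after seeing the data, is also counted among the alternatives. All members are named; genes like a member were those with the smallest root mean square difference from the member with the largest spread of group means. The members, lists and tests were chosen with earlier results of these data known. Positions and upstream sequences are from RefSeq on GRCm38.p6, matched by symbol.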

Additional observations from a re-analysis of the deposited data

How the results depend on the processing

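The number of members called depended on the setting for 5 of the 13 contrasts and stayed at 0 in all alternatives for the others. At 6 h against untreated in wild-type glands, 1 in the main fit, it was 0 with no filter on low values, where 409 of all genes were called. It was also 0 with arrays centred on their medians and 0 with an intensity trend and robust prior. With array weights it was 3, where the count over all genes rose from 433 to 1243. When 1 array was left out it was 0 to 2. Between 18 h and 6 h in wild-type glands, 1 in the main fit, it was 2 with the filter at the 50th percentile, 2 with array weights, 2 when the fit held just the 2 groups at issue, and 1 to 2 when 1 array was left out. Between the genotypes at 6 h it was 2 with array weights and 0 to 1 when 1 array was left out, against 1. The genotype by treatment count at 6 h was 1 with array weights against 0. Averaged over conditions, the genotype count was 3 with array weights, 0 to 2 when 1 array was left out and 1 without replicates 10 and 16, against 0. The cause of these moves was not tested. No difference that was called in any setting had the opposite sign in another. Counts over all genes moved too, given here as the main count, the range with 1 array left out and the count with array weights. In wild-type glands they were 433, 176 to 880 and 1243 at 6 h, 25, 8 to 86 and 212 at 18 h, and 1389, 810 to 2419 and 3423 between the times. In knockouts they were 0, 0 to 1 and 0 at 6 h, 0, 0 to 2 and 22 at 18 h, and 0, 0 to 1 and 455 between the times. Between the genotypes they were 79, 31 to 137 and 177 untreated, 775, 420 to 1004 and 2293 at 6 h, 162, 40 to 427 and 1589 at 18 h, and 898, 599 to 1321 and 2335 averaged. The interactions had 48, 17 to 109 and 284 at 6 h, 3, 1 to 6 and 19 at 18 h, and 197, 87 to 284 and 1512 by time. With just the groups at issue the counts were 4 for wild-type glands at 18 h, 98 and 347 between the genotypes at 6 h and 18 h, and 12 and 108 for the 6 h and time interactions. Without replicates 10 and 16 there were 767 between the times in wild-type glands, 63 between the genotypes at 18 h, and 1 and 46 for the 18 h and time interactions. Counts over all genes for the other contrasts in these settings are not listed here. No paired analysis was possible because every replicate number occurs once in the labels and no groups share one.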
